A study of Rattus norvegicus with 10 samples.

Results

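A set of extracellular matrix genes was followed by library in fetal rat hearts, and its members were selected by their symbols from the 18025 genes listed: 10 members, namely the thrombospondins Thbs1, Thbs2, Thbs3 and Thbs4, and Mgp, Spp1, Sparc, Postn, Tnc and Fn1. Their levels in the control and hyperglycemia libraries were known when they were selected, so their levels and fold changes are given here as a description and not as a test of the members. Each gene was measured by mRNA sequencing in 10 libraries of hearts at embryonic day 19.5, 5 in the control (CON) group and 5 in the hyperglycemia (HG) group. The fetuses were wild-type Sprague-Dawley rats. Dams of both groups were 3 months old and were mated with normoglycemic males before any treatment. After the plug was seen, HG dams received streptozotocin, a toxin of the insulin-producing beta cells, in citric acid buffer by intraperitoneal injection daily for 3 days, and CON dams received the buffer alone. The non-fasting glucose of HG dams was then above 16 mM. The labels do not say whether the libraries of a group came from separate litters, and the methods of the study speak of a library made from pooled RNA although the values differ from library to library, so an error given here measures only the spread between these libraries. The sex of the fetuses is not given in the labels.

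Matricellular proteins are secreted into the matrix around cells, where they bind collagens, growth factors and cell surface receptors and tune adhesion and signaling rather than bear load. Thbs1 and Thbs2 form trimers and restrain blood vessel growth, whereas Thbs3 and Thbs4 form pentamers. Fn1 (fibronectin), Tnc (tenascin C) and Postn (periostin) are assembled by mesenchymal cells of the developing valves and of injured hearts, and Mgp (matrix Gla protein) is a vitamin K-dependent inhibitor of calcification in vessel walls and cartilage. Heart muscle markers such as Myh6 and Actc1 summed to 19852 to 21111 FPKM in CON and to 17024 to 20612 FPKM in HG, and lung and thymus markers to at most 0.132 FPKM in any library. Of the 8 heart muscle markers, 6 were called lower in HG and 1, Nppa, higher, and Actc1, the most abundant of them, was not called. Myh6, the fast myosin heavy chain, fell from 432 ± 40.6 to 211 ± 20.7 FPKM (SD, n = 5), and the part of heart muscle RNA in the levels of the members was not tested. The hearts contained RNA of many cell types, and fewer cells of a type cannot be told apart from less RNA per cell.

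Library 4 of each group stood apart in some matrix genes, which were chosen after their values were seen. Fbln5 (fibulin 5), an elastic fiber protein, was at 3.85 FPKM in CON library 4 against 27.4 to 37.7 FPKM in the other CON libraries. In HG library 4 it was at 3.84 FPKM, against 17.95 to 26.7 FPKM in the other HG libraries. Ccn5 was at 0.330 FPKM in CON library 4 and 0.433 FPKM in HG library 4, also the lowest of each group. With both of these libraries left out, the 6 members called with all libraries were still called in the same direction, and Thbs1 was called as well. In that setting 5178 of the 14546 genes tested were called, 3664 higher and 1514 lower. Since the members were selected on this contrast, nothing is read from their count.

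Of the 10 members, 6 passed the threshold of the comparison across all genes, an adjusted p under 0.05 by limma. That threshold was passed by 40.1% of the 14542 genes tested, and since the members were selected on this contrast nothing is read from their count. Thbs3, Thbs4, Tnc and Fn1 were higher in HG (28.4% of all genes were called higher), and Mgp and Postn were lower (11.8% of all genes). Counts called in the lists of genes and markers stand beside these same shares. Those lists too were chosen with earlier results of these data known, so their counts are a description. With median-of-ratios scaling of the libraries the balance over all genes was 2289 higher and 2545 lower, against 4127 and 1709 in the FPKM as deposited, while the members again gave 4 higher and 2 lower. The libraries of the CON and HG groups did not overlap for 5 of the 10 members, compared with 27.4% of all genes. Of these members 4 were higher in HG (19.3% of all genes) and 1, Mgp, was lower (8.12%). Differentially expressed genes (DEGs), which also differed by more than 1 on the log2 scale, made up 1.94% of all genes and included 2 members, Thbs4 among the higher (0.866% of all genes) and Mgp among the lower (1.07%). The unit is FPKM, fragments scaled to gene length and to library size, which is per length and so allows levels of different genes to be set side by side.

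**Figure D1:**
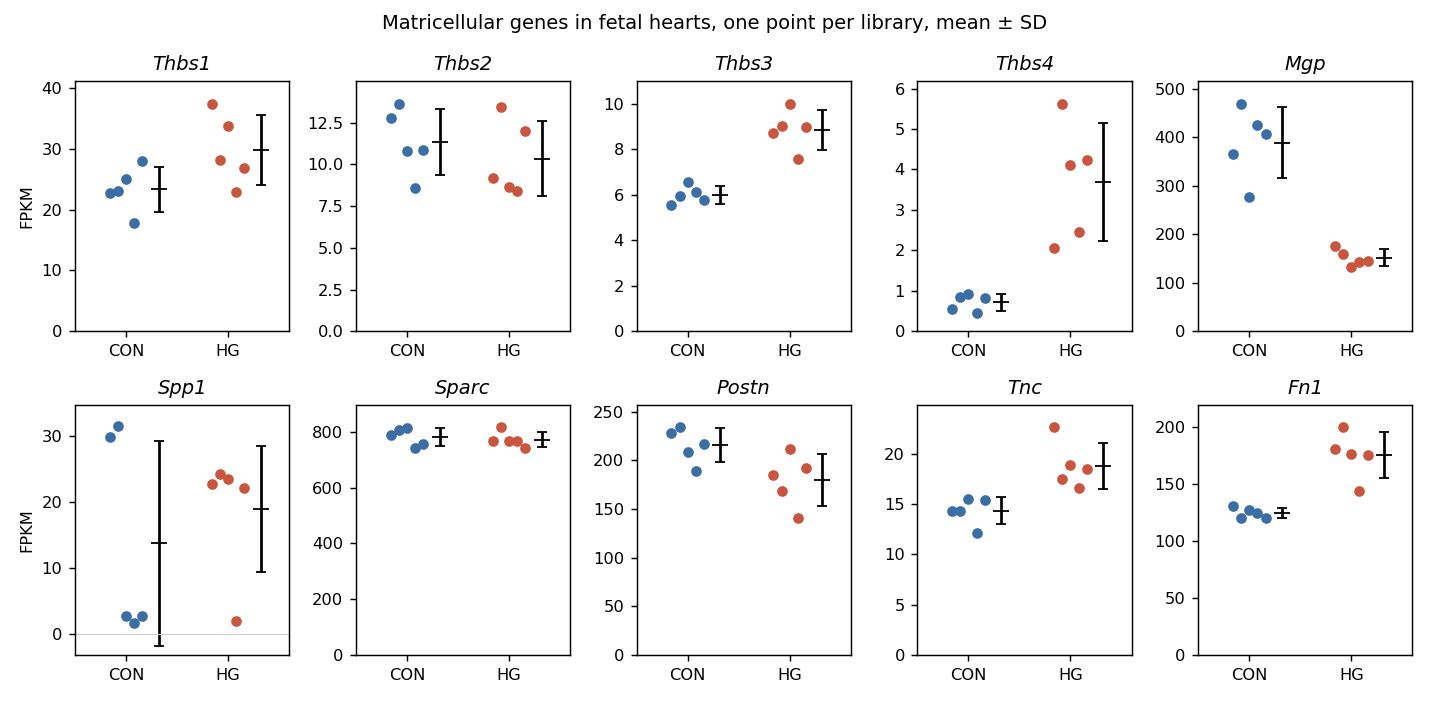
Levels (FPKM, linear axis) of the 10 members in each of the 5 CON (blue) and 5 HG (red) libraries, one point per library in replicate order, with the mean ± SD in black. Thbs4 and Mgp are separated between the groups, while Spp1 sits either below 3 or above 22 FPKM in both groups.

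In CON hearts the members ranked from Sparc at 781 ± 31.5 FPKM down to Thbs4 at 0.713 ± 0.205 FPKM (mean ± SD, n = 5). Between them came Mgp, Postn, Fn1, Thbs1, Tnc, Spp1, Thbs2 and Thbs3. Tnc, Spp1 and Thbs2 overlapped their neighbours in this order, and every other pair of neighbours was apart in all CON libraries. In HG hearts Sparc remained first at 771 ± 26.6 FPKM, and Postn, Fn1 and Mgp came next with overlapping ranges, at 179.8 ± 26.6, 175 ± 20.2 and 151 ± 17.5 FPKM (n = 5). Together the members held 0.321 to 0.363% of the FPKM of a CON library and 0.273 to 0.317% of that of an HG library. Mgp had the largest difference in FPKM between the group means, from 389 ± 73.0 in CON to 151 ± 17.5 in HG. As 4 other members were called higher in HG, the lower share does not describe a fall of the whole set.

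Thbs4, which is abundant in tendon and muscle and which binds the endoplasmic reticulum stress sensor Atf6 in heart muscle cells, showed the largest fold difference among the members. The level was 0.548, 0.834, 0.915, 0.443 and 0.824 FPKM in CON libraries 1 to 5. In HG libraries 1 to 5 it was 2.06, 5.62, 4.10, 2.44 and 4.23 FPKM. Every HG library lay above every CON library, and the mean was 5.18-fold higher, with a log2 fold change of 2.17 ± 0.263 (SE). The values rested on 26 to 52 reads in a CON library and 127 to 333 in an HG library. The HG libraries spread beyond counting error, since the exact 95% Poisson interval of library 1 was 1.72 to 2.45 FPKM and that of library 2 was 5.04 to 6.26 FPKM. These intervals cover counting error only. On the log2 scale with 0.1 FPKM added the SD among HG libraries was 0.58, and 65 of the 2772 genes within 2-fold of the mean level of Thbs4 varied more among those libraries. The tendon marker Tnmd was at or below 0.123 FPKM in every library, and Scx, a tendon and valve factor, was called in neither direction at 3.25 ± 0.519 FPKM in CON against 3.79 ± 0.817 FPKM in HG.

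The 250 bases before the annotated start of Thbs4 are shown because they are rich in G and C (67.6%, against a mean of 52.2% over all promoters of this length) and hold GC boxes. Capitals mark GGGCGG on the opposite strand, at bases 114 to 109 and 69 to 64 before the start. The sequence is from RefSeq, rat build GRCr8, chr2:25760346-25760595, minus strand, 5′ to 3′. A GC box, searched on both strands, occurred in 30.5% of 33469 promoters of this length.
Thbs4: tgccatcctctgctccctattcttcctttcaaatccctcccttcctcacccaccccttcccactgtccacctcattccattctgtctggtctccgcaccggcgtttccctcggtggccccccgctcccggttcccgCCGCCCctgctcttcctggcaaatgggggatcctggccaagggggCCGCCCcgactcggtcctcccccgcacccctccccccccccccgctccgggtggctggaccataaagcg
No match, on either strand, to the CCAAT box (CCAAT, in 34.0% of promoters), the TATA box (TATAAA, 12.9%), the AP-1 site (TGANTCA, 6.34%) or the Runx site (AACCACA, 4.59%) was found in this window, and the 2 GC boxes overlapped no other match.

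Thbs3, the other pentameric member, was at 5.56, 5.95, 6.56, 6.11 and 5.77 FPKM in CON libraries 1 to 5. In HG libraries 1 to 5 the level was 8.73, 9.03, 9.996, 7.55 and 8.99 FPKM. The groups did not overlap, and the log2 fold change was 0.55 ± 0.0737 (SE). Among genes of like level its spread was ordinary in CON, where 2783 of 4682 genes varied more.

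Thbs1, which releases transforming growth factor beta from its latent complex and binds Cd36 and Cd47, was the most abundant thrombospondin. It was at 22.8, 23.0, 25.1, 17.8 and 27.9 FPKM in CON libraries 1 to 5 and at 37.4, 28.3, 33.8, 22.9 and 26.8 FPKM in HG libraries 1 to 5. The ranges overlapped, and the log2 fold change of 0.35 ± 0.136 (SE) did not pass the threshold.

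Thbs2, which limits vessel growth and shapes collagen fibrils, was at 12.8, 13.6, 10.8, 8.57 and 10.9 FPKM in CON libraries 1 to 5. In HG libraries 1 to 5 it was at 9.21, 13.4, 8.62, 8.42 and 12.03 FPKM. The ranges nearly coincided, with a log2 fold change of -0.14 ± 0.147 (SE). Thbs1 and Thbs2 also spread widely for their level, since in CON 81 of 3667 and 159 of 4880 genes of like level varied more.

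**Figure D2:**
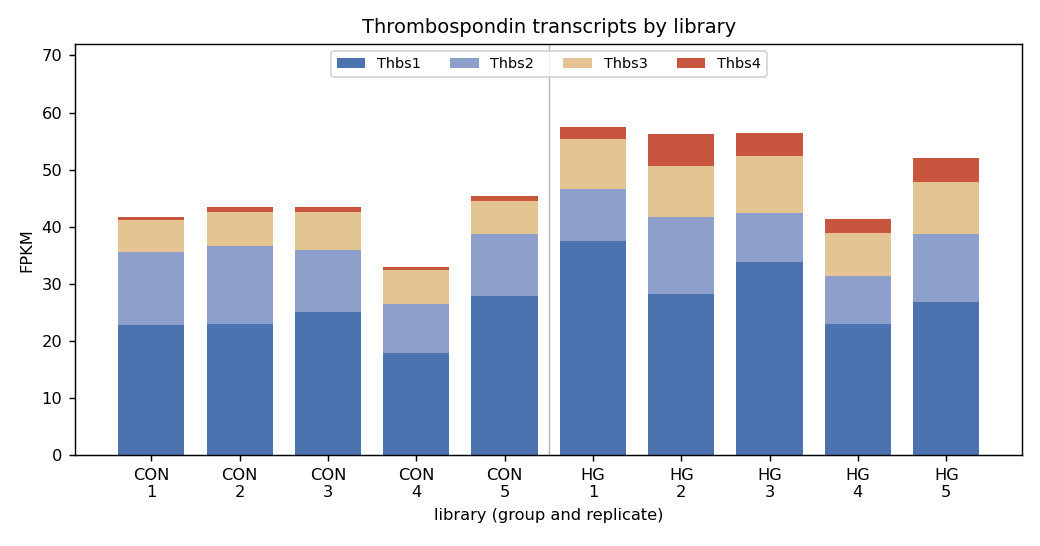
Summed level (FPKM) of the 4 thrombospondin transcripts in each of the 10 libraries, stacked by gene. The Thbs4 share is thin in CON libraries and visible in every HG library, while Thbs1 is the largest segment in all 10.

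The sum of the 4 thrombospondin transcripts was 32.9 to 45.4 FPKM in CON against 41.3 to 57.4 FPKM in HG, and the stacked plot of the libraries shows that the ranges overlapped. Thbs1 made up 53.0 to 61.6% of that sum in CON and 50.2 to 65.2% in HG. The share of Thbs4 was 1.31 to 2.11% in CON and 3.59 to 9.98% in HG, and that of Thbs2 was 23.9 to 31.4% in CON and 15.3 to 23.8% in HG. The share of Thbs3 was 12.7 to 18.5% in CON and 15.2 to 18.3% in HG. The share of Thbs4 did not overlap between the groups, and those of Thbs1 and Thbs3 did. That of Thbs2 was only just apart, at 23.9% in CON library 5 and 23.8% in HG library 2. A share also falls when the other transcripts of the sum rise, and the level of Thbs2 itself overlapped.

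Mgp had the lowest log2 fold change of the members. It stood at 366, 469, 276, 425 and 407 FPKM in CON libraries 1 to 5. In HG libraries 1 to 5 it stood at 177, 160, 131, 143 and 145 FPKM. Each HG library was below each CON library, the CON mean was 2.57-fold the HG mean, and the log2 fold change was -1.35 ± 0.124 (SE). CON library 3 was the lowest of its group, and the ratio of Mgp to Sparc, a gene that was level between the groups, was 0.339 to 0.580 in CON and 0.172 to 0.231 in HG. Mgp needs gamma-carboxylation by Ggcx with vitamin K recycled by Vkorc1, and neither enzyme gene passed the test, with log2 fold changes of 0.03 ± 0.0467 and 0.05 ± 0.0771. Vkorc1l1, the paralog of Vkorc1, was called higher, with 0.15 ± 0.0528. Markers of smooth muscle and pericytes, cells of vessel walls, were also read. Smooth muscle genes were higher (summed 657 to 785 FPKM in CON against 895 to 1127 FPKM in HG, 3 of 5 called higher). Most of that sum was Acta2, at 538 ± 42.6 FPKM in CON against 673 ± 65.4 FPKM in HG. Myh11 and Mylk were not called. Pericyte genes were at 146 to 175 FPKM in CON against 128 to 146 FPKM in HG, with 3 of 5 called lower. No marker of either list was at 0 in all libraries, and their part in the level of Mgp was not tested.

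Spp1 (osteopontin), a phosphorylated ligand of integrins and Cd44 made by bone cells and by activated macrophages, did not follow the groups. It was at 29.8 and 31.5 FPKM in CON libraries 1 and 2 but at 2.76, 1.68 and 2.68 FPKM in CON libraries 3, 4 and 5. In HG libraries 1, 2, 3 and 5 it was at 22.7, 24.2, 23.4 and 22.1 FPKM, and in HG library 4 at 1.95 FPKM. No library lay between 2.76 and 22.1 FPKM, so that both groups contained a high and a low level. The reads behind these values were 832, 885, 75, 47 and 73 in CON libraries 1 to 5 and 667, 684, 626, 53 and 568 in HG libraries 1 to 5. The 95% Poisson interval of the highest low library was 2.17 to 3.46 FPKM and that of the lowest high library 20.3 to 24.02 FPKM, far apart on the counting scale. With SDs of 2.03 and 1.57 on the log2 scale in CON and HG, only 2 of the 4637 genes within 2-fold of its mean level varied more in CON and 2 in HG. The log2 fold change between the groups was 1.09 ± 0.925 (SE), which did not pass the threshold, and it ranged from 0.62 to 1.79 when single libraries were left out.

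The size of the gap was compared with that of other genes as a description. Taken were the 7429 genes whose widest gap, with at least 3 libraries on each side, had libraries of both groups on both sides. Their gaps were measured on the log2 scale. The median was 0.09, 63 genes exceeded 1 and 10 exceeded 2, and the gap of Spp1 was 2.96, ranked 9. Among the genes above it were the Y-linked genes Eif2s3y, Kdm5d and Uty, whose low libraries (CON 2, 3 and 5, HG 2, 4 and 5) were not those of Spp1. Also above it were LOC120101677, RGD1564801 and RT1-CE15, with gaps of 4.39, 3.50 and 3.13. Their low libraries differed from those of the Y-linked genes and from those of Spp1. CON library 4 was low for Spp1 and had Eif2s3y at 31.8 FPKM, whereas CON library 3 was low for Spp1 with Eif2s3y at 0.03 FPKM. The widest gap of the other members that had one of this kind was 0.23, in Thbs2.

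The genes beside Spp1 that were expressed showed no such gap. In RefSeq order (GRCr8) of protein-coding genes the adjacent gene Pkd2 was at 8.94 to 12.7 FPKM over the 10 libraries. Sparcl1, another member of the same phosphoprotein gene cluster, was at 36.7 to 54.8 FPKM. Ibsp and Dmp1, the bone genes of the cluster, were at or below 0.117 FPKM in every library. The bone cell factor Sp7 was likewise at or below 0.0692 FPKM. Macrophage markers summed to 35.3, 32.9, 35.4, 28.7 and 33.5 FPKM in CON libraries 1 to 5 and to 34.0, 43.2, 39.0, 43.9 and 41.2 FPKM in HG libraries 1 to 5. HG library 4, low for Spp1, had the highest sum, and CON library 4, the lowest of all for Spp1, had the lowest sum. The part of macrophages in the level of Spp1 was not tested. No macrophage marker was at 0 in all libraries, and 3 of 7 were called higher in HG. The cartilage gene Acan, chosen after its values were seen, was at 1.44, 1.33, 1.37, 0.246 and 1.41 FPKM in CON libraries 1 to 5 and at 0.404, 0.572, 0.446, 0.0410 and 0.493 FPKM in HG libraries 1 to 5, lowest of its group in library 4 of each. Acan was thus low together with Spp1 in 2 of the 4 libraries low for Spp1, and the part of cartilage in the level of Spp1 was not tested. Across the 8 cartilage, bone and tendon markers, 1 was called higher in HG (Col2a1, by 0.79 ± 0.283 on the log2 scale) and 1 lower (Acan, -1.35 ± 0.486) of 6 tested. Their sum was 8.65 to 18.0 FPKM in CON libraries and 15.9 to 20.9 FPKM in HG libraries, and none was at 0 in all libraries. Most of that sum was Fmod, which was not called, at 10.3 ± 2.62 FPKM in CON against 12.5 ± 2.36 FPKM in HG.

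**Figure D3:**
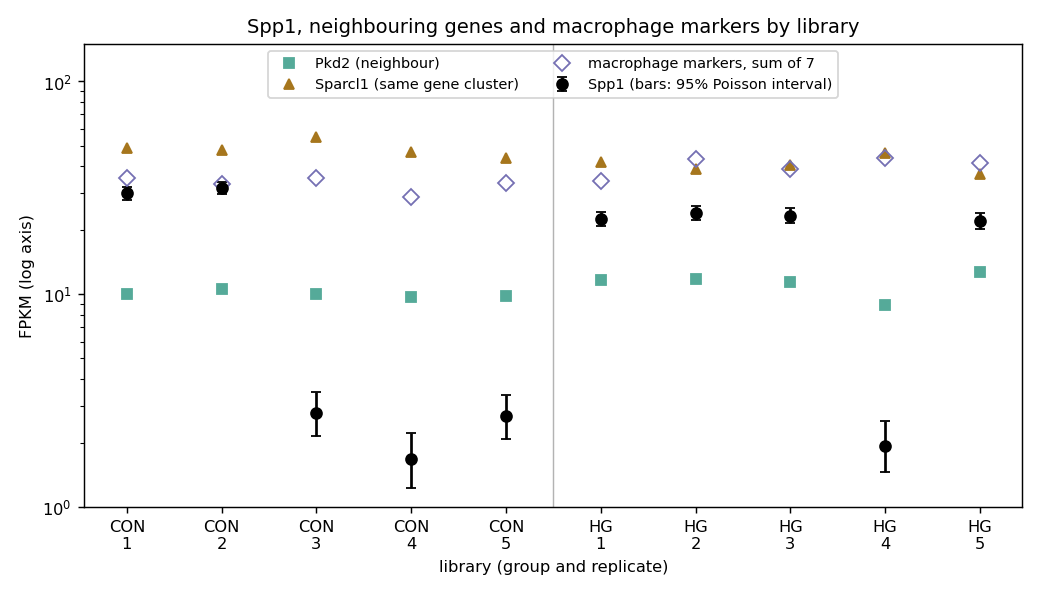
Level (FPKM, log axis) of Spp1 in each of the 10 libraries with its exact 95% Poisson counting interval, beside Pkd2, Sparcl1 and the sum of 7 macrophage markers. Spp1 is at 1.68 to 2.76 FPKM in CON 3, 4 and 5 and in HG 4 and at 22.1 to 31.5 FPKM elsewhere, while Pkd2 stays between 8.94 and 12.7 FPKM.

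The 250 bases before the start of Spp1 are shown beside this split. They come from RefSeq, GRCr8, chr14:5619805-5620054, minus strand, 5′ to 3′, with 46.8% G and C, and capitals mark the only match to a searched motif, TATAAA at bases 204 to 199 before the start. TATAAA, searched on both strands, occurred in 12.9% of promoters of this length.
Spp1: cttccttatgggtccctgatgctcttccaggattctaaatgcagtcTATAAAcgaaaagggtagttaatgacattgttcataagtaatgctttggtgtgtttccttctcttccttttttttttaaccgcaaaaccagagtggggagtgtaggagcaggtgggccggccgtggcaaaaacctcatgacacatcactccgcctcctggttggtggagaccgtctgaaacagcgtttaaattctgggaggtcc
Of the 10 members, 7 had a promoter in the RefSeq table, and a TATAAA was also found before Postn, at bases 44 to 39, and before Tnc, at bases 208 to 203.

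Sparc, a collagen-binding glycoprotein of developing tissues, was the most abundant member. It ranged from 743 to 814 FPKM in CON and from 744 to 816 FPKM in HG. The ranges coincided, with a log2 fold change of -0.02 ± 0.0395 (SE), and its coefficient of variation was 4.03% in CON and 3.45% in HG, where it was the lowest of the 10 members. In CON that of Fn1 was lower, at 3.60%.

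Postn, a collagen-associated protein of cardiac fibroblasts and valves, was at 228, 234, 209, 189 and 217 FPKM in CON libraries 1 to 5 and at 186, 169, 212, 141 and 192 FPKM in HG libraries 1 to 5. The groups overlapped, since HG library 3 lay above CON libraries 3 and 4, and the log2 fold change was -0.27 ± 0.0944 (SE), a call that was lost when any 1 of 7 single libraries was left out. Fibroblast markers summed to 1777 to 2007 FPKM in CON against 1570 to 1767 FPKM in HG, with 2 of 8 called higher, 4 called lower and none at 0, and their part in the level of Postn was not tested.

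Tnc, an adhesion-modulating glycoprotein of remodeling tissue, was at 14.3, 14.3, 15.5, 12.1 and 15.4 FPKM in CON libraries 1 to 5 and at 22.6, 17.5, 18.8, 16.6 and 18.4 FPKM in HG libraries 1 to 5. All HG libraries were above all CON libraries, with a log2 fold change of 0.39 ± 0.0857 (SE). HG library 1 held the highest Tnc and also the highest Thbs1.

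Fn1, the integrin ligand on which other matrix proteins assemble, was at 131, 120, 128, 125 and 121 FPKM in CON libraries 1 to 5. In HG libraries 1 to 5 it was at 181, 200, 176, 144 and 176 FPKM. The groups did not overlap, the mean was 1.40-fold higher, and the log2 fold change was 0.48 ± 0.0697 (SE). HG library 4 was the lowest of its group for Fn1, as it was for Thbs1, Thbs2, Thbs3, Spp1, Postn and Tnc. CON library 4 was likewise the lowest of its group for Thbs1, Thbs2, Thbs4, Spp1, Sparc, Postn and Tnc, and both had reads on genes within the range of the other libraries. The ratio of Fn1 to Postn was 0.515 to 0.659 in CON and 0.834 to 1.18 in HG. Valve and cushion markers summed to 58.3 to 63.4 FPKM in CON against 86.7 to 108 FPKM in HG, with 4 of 6 called higher and none at 0. The largest part of that sum was Vcan, a proteoglycan of the cushions, at 29.3 ± 1.47 FPKM in CON against 54.4 ± 2.74 FPKM in HG (SD, n = 5 each). Sox9 and Scx overlapped between the groups, with Sox9 at 4.21 to 5.07 FPKM in CON and 3.51 to 6.63 FPKM in HG. The part of valve cells in the levels of Fn1 and Tnc was not tested. Platelets store Thbs1 and Sparc, and platelet markers summed to 14.7 to 21.6 FPKM in CON against 12.1 to 20.4 FPKM in HG, with 0 of 5 called by limma, 0 at an unadjusted p under 0.05 and 0 called by voom on recovered reads.

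**Figure D4:**
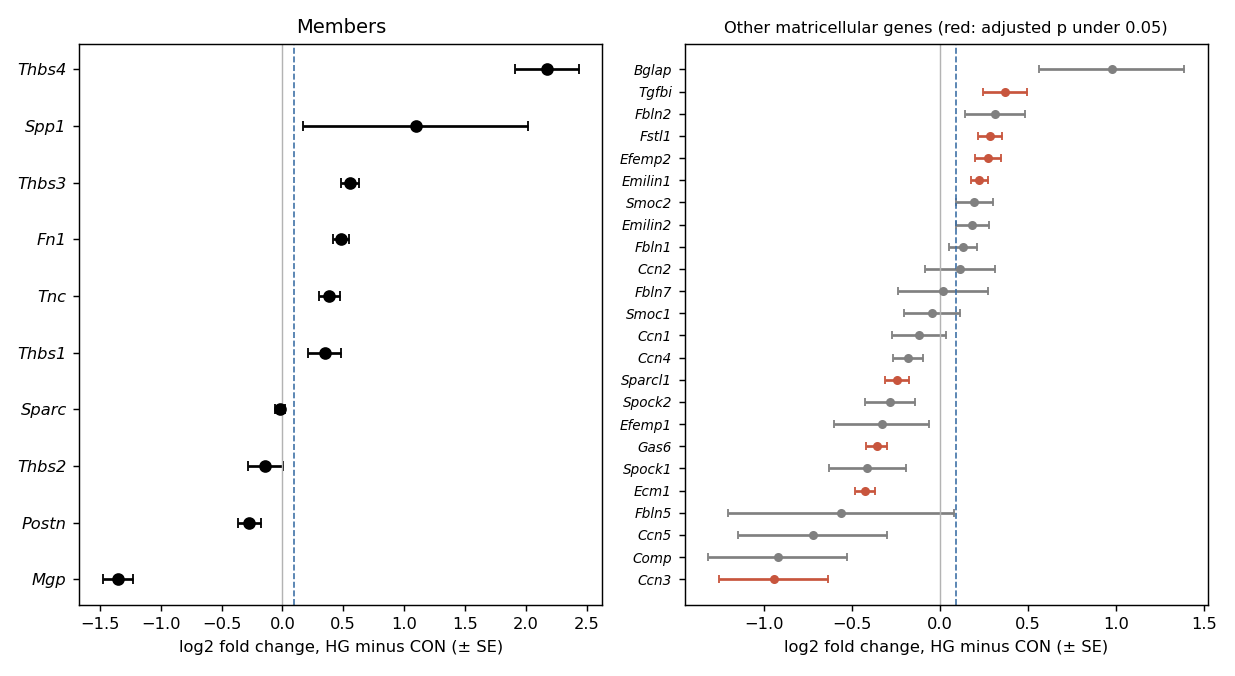
Log2 fold change (HG minus CON, ± SE) of the 10 members (left) and of the 24 other matricellular genes tested (right, red where the adjusted p was under 0.05). The dashed line is the median of all genes, 0.09. Thbs4 and Mgp stand at 2.17 and -1.35, and no other matricellular gene with a call reached 1 in either direction.

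The genes whose profile over the 10 libraries was most like that of a member were found for the 3 members with an absolute log2 fold change above 1. The measure was the root mean square distance between log2 values after each gene was centred on its mean. For Thbs4 these were Angptl4 at 0.436, Sncb at 0.456 and Igfbp3 at 0.486, against an SD of 1.24 for Thbs4 itself. Angptl4, an inhibitor of lipoprotein lipase, was at 0.505 ± 0.109 FPKM in CON against 2.32 ± 0.112 FPKM in HG, with less spread than Thbs4. Igfbp3, a binding protein of insulin-like growth factors, was at 39.5 ± 6.52 FPKM in CON against 132 ± 20.2 FPKM in HG. For Mgp they were Dnah8 at 0.214, LOC691485 at 0.227 and Itga7 at 0.247, against an SD of 0.75. For Spp1 they were Defb29 at 1.02, Nrn1l at 1.096 and Cnmd at 1.11, against an SD of 1.80. These distances were larger than those for Thbs4 and Mgp. Cnmd was at 1.13, 0.890, 0.680, 0.0388 and 0.758 FPKM in CON libraries 1 to 5 and 0.665, 1.81, 1.02, 0.160 and 1.44 FPKM in HG libraries 1 to 5, and it did not show the low level of Spp1 in CON libraries 3 and 5.

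The deposited annotation gives terms that the members share. As the members were chosen as matrix genes, a shared matrix term follows from that choice. The GO term extracellular matrix was attached to 8 of 10 members and to 1.58% of annotated genes, heparin binding to 6 members and 0.938% of genes, and calcium ion binding to 6 members and 3.88% of genes. A KEGG pathway was given for 7 members (the 4 thrombospondins, Spp1, Tnc and Fn1), and all 7 were in ECM-receptor interaction, which held 85 of 6939 genes with a pathway. The other 78 genes of that pathway, mostly collagens, laminins and integrins, were measured as well. Of 71 tested, 28 were called, 19 higher and 9 lower, or 39.4%, against 40.1% of all genes, and the median log2 fold change was 0.03 against 0.09. With median-of-ratios scaling 30 were called, 11 higher and 19 lower. The laminin genes Lamb2 and Lama2 fell by 0.47 ± 0.0494 and 0.28 ± 0.0482 on the log2 scale, while Lama1, of low level, rose from 0.446 ± 0.0811 to 0.985 ± 0.220 FPKM. Of the integrins, Itga7, the laminin receptor of muscle, fell from 2.06 ± 0.130 to 0.698 ± 0.0644 FPKM (-1.44 ± 0.0965 on the log2 scale, limma adjusted p = 1.2e-06). Itga8 and Itga1 rose by 0.76 ± 0.123 and 0.32 ± 0.0517 on that scale.

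**Figure D5:**
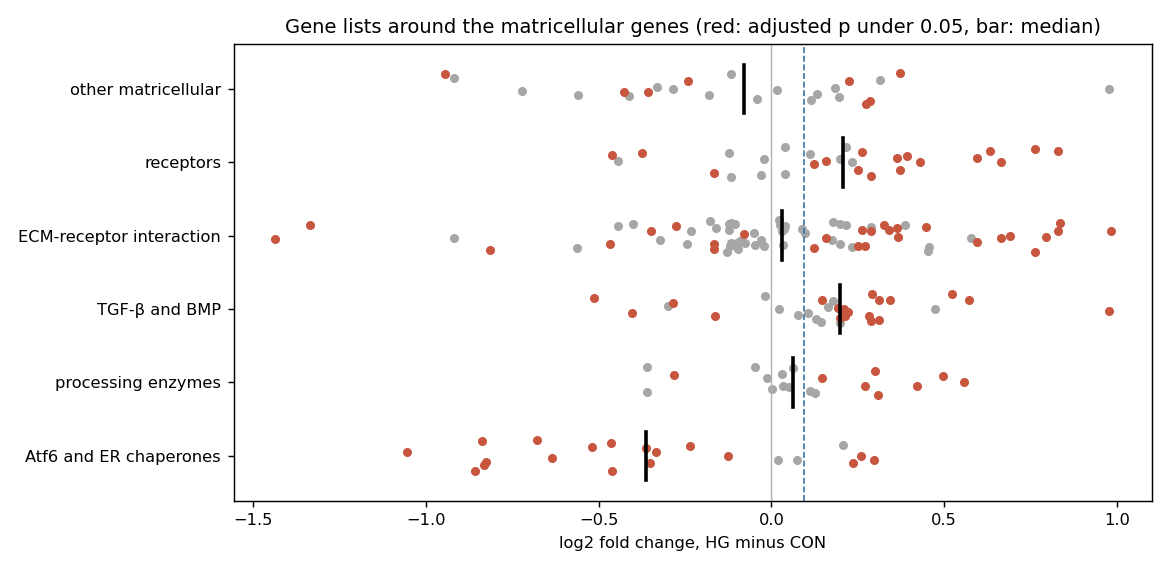
Log2 fold change (HG minus CON) of the tested genes of 6 lists around the members, red where the adjusted p was under 0.05 and grey otherwise, with the median of each list as a black bar. The dashed line is the median of all genes, 0.09. The chaperone list lies mostly below 0 (median -0.36) and the receptor list mostly above it (median 0.21).

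Among 33 other matricellular genes, 30 were listed in the file and 24 tested. Of these 8 were called, 4 higher and 4 lower (33.3%, against 40.1% of all genes). Emilin1, which anchors elastic fibers, Fstl1, a secreted relative of Sparc, and Efemp2, an elastic fiber assembly protein, rose by 0.22 ± 0.0475, 0.28 ± 0.0697 and 0.27 ± 0.0731 on the log2 scale, though Fstl1 and Efemp2 lost their call with median-of-ratios scaling. Ecm1, Gas6, a vitamin K-dependent ligand as Mgp is a vitamin K-dependent protein, and Sparcl1 fell by 0.43 ± 0.0572, 0.36 ± 0.0578 and 0.24 ± 0.0676. The median log2 fold change was -0.08, and with median-of-ratios scaling 1 gene was called higher and 5 lower. Without library 4 of each group 13 genes were called, 6 higher and 7 lower. The CCN family members Ccn1 and Ccn2, targets of mechanical signaling, did not pass the test, at 42.8 ± 10.9 and 128 ± 38.7 FPKM in CON and 38.8 ± 5.76 and 136 ± 32.04 FPKM in HG (SD, n = 5). Comp, the pentameric thrombospondin not among the members, did not pass it either, at 0.215 ± 0.162 FPKM in CON against 0.0548 ± 0.0507 FPKM in HG.

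Of 29 receptor genes of these proteins, 28 were tested and 17 were called, 14 higher and 3 lower (60.7%, against 40.1% of all genes). Of all genes 28.4% were called higher and 11.8% lower. With median-of-ratios scaling 8 receptor genes were called higher and 4 lower. The median log2 fold change was 0.21. Sdc1, a heparan sulfate co-receptor of thrombospondin and fibronectin, rose by 0.67 ± 0.0854, Scarb1 by 0.43 ± 0.0594 and Lrp1, which clears thrombospondins from the cell surface, by 0.37 ± 0.0560. Among integrin subunits that bind Fn1, Spp1, Tnc or Postn, Itgb5 went from 41.2 ± 4.54 to 52.9 ± 3.37 FPKM and Itgav from 16.4 ± 0.590 to 18.3 ± 0.608 FPKM, both called higher. Itga5 went from 61.6 ± 3.93 to 56.6 ± 3.43 FPKM and Itga9 from 5.24 ± 0.307 to 4.83 ± 0.490 FPKM, and neither was called. Calr, Vldlr and Cd47, receptors or co-receptors of thrombospondins, fell by 0.46 ± 0.0467, 0.38 ± 0.0528 and 0.17 ± 0.0606, and the call of Cd47 was lost in 10 of 21 alternative analyses. Calr is also counted in the list of Atf6 and endoplasmic reticulum chaperones. Many receptor genes, such as Sdc1, Itgb5 and Cd47, are also in the ECM-receptor interaction list, so the counts of these lists are not independent. Cd36, the other classical receptor of Thbs1, did not pass the test, at 9.69 ± 4.03 FPKM in CON against 7.16 ± 3.16 FPKM in HG.

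Thbs1 activates transforming growth factor beta and Mgp binds bone morphogenetic proteins, so the genes of those pathways were described too. Of 33 listed, 31 were tested and 20 called, 16 higher and 4 lower (64.5%, against 40.1% of all genes). As this list was chosen with earlier results of these data known, nothing is read from that share. Their median was 0.20 on the log2 scale, and 9 were called higher and 4 lower with median-of-ratios scaling. Bmp10, a growth factor of trabecular heart muscle, rose from 15.8 ± 4.01 to 30.5 ± 3.06 FPKM, Id2, a target of such factors, by 0.57 ± 0.0728 on the log2 scale, and Bmpr1a by 0.20 ± 0.0386. Tgfbr3, Acvrl1 and Tgfbr2, receptors of these ligands, fell by 0.51 ± 0.0614, 0.40 ± 0.0626 and 0.16 ± 0.0420.

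Of the 19 enzymes that process these proteins, 8 were called, 7 higher and 1 lower (42.1%, near the 40.1% of all genes), and their median was 0.06. Adamts1 and Mmp14, proteases that cleave matrix proteins, and Loxl3, a cross-linking enzyme, rose by 0.31 ± 0.0477, 0.42 ± 0.0657 and 0.56 ± 0.0877, and the procollagen protease Adamts2 fell by 0.28 ± 0.0672. Of 21 genes of Atf6 and endoplasmic reticulum chaperones, the pathway with which Thbs4 is linked, 18 were called, 3 higher and 15 lower. That was 85.7%, against 40.1% of all genes, and their median log2 fold change was -0.36. This list was likewise chosen with earlier results known, and nothing is read from its share. Sdf2l1, Hyou1 and Manf, Atf6 targets, fell by 1.05 ± 0.0768, 0.83 ± 0.0645 and 0.68 ± 0.0550 on the log2 scale. Atf4, Mbtps1 and Atf6b rose by 0.30 ± 0.0308, 0.24 ± 0.0384 and 0.26 ± 0.0738, though Atf6b lost its call with median-of-ratios scaling. Atf6 itself did not pass the test, at 8.91 ± 0.607 FPKM in CON against 9.38 ± 0.481 FPKM in HG.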

How the data were processed

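Hearts at embryonic day 19.5 were sequenced as stranded mRNA libraries, 5 CON and 5 HG, grouped by their labels. The authors deposited FPKM per gene, which are reads divided by gene length and library size, with GO and KEGG terms; the submitters' processing notes name fastp, HISAT2, HTSeq, R 3.2.0 and build mRatBN7.2, without their roles. Of the per-library columns, 0 were left unused. The methods name a test for counts. In its place, limma 3.58.1 (R 4.3.3, linear model with a trend on expression, no covariate) was used on log2(FPKM + 0.1), for 14542 genes averaging 0.1 FPKM or more over the libraries. This scale understates changes of low genes. A call needed an adjusted p (Benjamini-Hochberg) under 0.05, and a DEG also an absolute log2 fold change above 1.

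Reads were recovered from the steps between FPKM values, with 100% of values whole within 0.02 reads. Each CON library held 17639895 to 18240006 reads on genes and each HG library 16672876 to 19109844. Intervals of single values are exact 95% Poisson intervals. Fits and read recovery were tested on simulated data. Tables and plots were made in Python 3.11.15 (pandas 2.3.3, numpy 2.4.6, scipy 1.17.1, matplotlib 3.10.9).

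The members and lists were chosen with earlier results of these data known, and the comparison of members is a description. From each list were named, by rule, the called genes with the smallest adjusted p, up to 3 higher and 3 lower in HG, other genes for their level or lack of a call, and for each member above 1 in absolute log2 fold change the 3 genes with the closest profile. Promoters and gene order came from RefSeq (GRCr8), and no coordinates were carried between builds. Promoters were matched by symbol, and neighbours by NCBI gene number among protein-coding genes only. The alternatives were other pseudocounts, filters and scalings, no trend, the replicate number as a block, voom on recovered reads and each library left out, and, chosen after seeing the data, Eif2s3y as a covariate, library 4 of both groups left out together, and the alternatives for the lists of growth factor, enzyme and chaperone genes. The values of 1 gene are not reported here.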

Additional observations from a re-analysis of the deposited data

Results flagged for a closer look

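In 4 of 86 groups of 5 libraries examined (43 genes in CON and HG), 1 library lay far from the others, with a gap over 0.71 of the range of its group, and chance alone flags about 1 group in 20. Spp1 in HG library 4 was at 1.95 FPKM against 22.1 to 24.2 FPKM in the other HG libraries, a gap of 0.908 of the range. Adamts2 in HG library 2 was at 9.99 FPKM against 7.94 to 8.34 FPKM (0.804). Emilin1 in CON library 4 was at 45.7 FPKM against 43.7 to 44.2 FPKM (0.749), and Scarb1 in CON library 3 at 12.6 FPKM against 10.3 to 10.9 FPKM (0.742). The low level of Spp1 in CON libraries 3, 4 and 5 was not singled out in this way, because 3 of 5 libraries shared it.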

How the results depend on the processing

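Over 21 alternatives, Thbs3, Thbs4, Mgp, Tnc and Fn1 stayed called in the same direction, and Thbs2, Spp1 and Sparc stayed uncalled. The log2 fold change of Thbs4 ranged from 1.40 (pseudocount 1) to 2.35, and that of Mgp from -1.47 to -1.28. Sparc changed sign, to 0.055, with quantile normalization. Postn lost its call with no filter, quantile normalization, no trend, and without CON library 1, 2, 3 or 5 or HG library 1, 2 or 4. Thbs1 gained a call without CON library 5, without HG library 4, without library 4 of both groups and with the replicate block. The number of DEGs was 64 with a pseudocount of 1 and 134 with a filter at a mean of 1 FPKM, against 282. It rose to 407 with a pseudocount of 0.01 and to 417 with voom on recovered reads, and ranged from 276 to 305 when single libraries were left out (319 without library 4 of both groups), and the number of called genes from 5059 to 5620, against 5836. The growth factor list had 13 calls with median-of-ratios scaling, against 20. The other matricellular genes had 6 to 9 calls when single libraries were left out and 13 without library 4 of both groups, against 8. Of 33 other genes, 4 (Fstl1, Efemp2, Cd47 and Atf6b) lost their call in some alternative and 0 changed sign. Cd47 lost it with no filter, with the replicate block, and when any 1 CON library, HG library 1, HG library 3 or library 4 of both groups was left out. The cause was not tested.

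Replicate numbers did not pair the libraries, as deviations of same-numbered libraries correlated between -0.126 and 0.108. With the replicate block 5096 genes were called, and 7 members. Depth limits Thbs4 in CON, at 26 to 52 reads.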

Other observations

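Protein-coding genes next to the members in RefSeq order (GRCr8), chosen here after their values were seen, included some that were called. Rasgrp1, an exchange factor that activates Ras and the gene adjacent to Thbs1, was at 8.56 to 11.003 FPKM in CON libraries and 0.637 to 1.67 FPKM in HG libraries, with a log2 fold change of -3.20 and no overlap, while Thbs1 itself overlapped between the groups. Art4, which lies next to Mgp and carries a blood group antigen of red cells, was at 14.1 to 16.2 FPKM in CON and 7.81 to 10.9 FPKM in HG (log2 fold change -0.61), and red cell markers summed to 6991 to 12530 FPKM in CON and 5164 to 7248 FPKM in HG. Smoc2, the matricellular gene adjacent to Thbs2, did not pass the test (log2 fold change 0.20), and Dact2, the next gene beyond it, was at 0.470 to 0.738 FPKM in CON libraries and 1.45 to 2.03 FPKM in HG libraries. These values are a description of neighbours and were not tested as pairs.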
